A study of Homo sapiens with 8 samples.

Results

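RNA of 42 DNA replication and S-phase genes was followed in leukemia cells that had become resistant to degradation of CTCF. The genes were chosen by name, with earlier results of these data known. Each symbol matched 1 row among the 60754 genes and spike-in sequences of the deposited table. All 42 passed the filter on low values, which left 15614 genes tested. The members encode origin licensing factors, the replicative helicase, the DNA polymerases and their clamp, the single-strand DNA-binding complex RPA, the enzymes that finish lagging strands, the enzymes that supply deoxynucleotides, and the E-type cyclins.

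The cells were SEM cells, an established human B-cell acute lymphoblastic leukemia line with a rearranged KMT2A gene, in which both alleles of CTCF carry a miniAID-mClover3 degron tag. They also express OsTIR1, an auxin receptor that brings a ubiquitin ligase to the tag, from a lentiviral cassette with a Zeocin resistance gene. Clone C17.2 and Clone C3.2, each a single clone of edited cells, had 2 libraries of untreated parental cells and 2 of resistant cells. Resistant cells were kept for 36 days in 1 μM 5-Ph-IAA, the auxin analog, with 100 μg/ml Zeocin, and were taken off both for 48 h. Parental and resistant cells of a clone share the cassette and the KMT2A rearrangement, and differ in the 5-Ph-IAA, the Zeocin and the time in culture. They differ in CTCF as well. The study describes a nonsense mutation in resistant cells of Clone C17.2 that cuts CTCF short and removes the tag. It describes a missense mutation inside the tag in those of Clone C3.2. In the immunoblots of the study, tagged CTCF came back in resistant cells of Clone C17.2 once the drugs were removed, beside the truncated form. The differences between parental and resistant cells cannot be told apart. The library numbers in the sample titles fall into a separate run for each clone, and whether the clones were handled together is not given in the sources used here. The labels do not say whether the 2 libraries of a group came from separate cultures, and the p-values measure only the spread between such libraries.

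Cells copy their genome once per division. In G1, the origin recognition complex, CDC6 and CDT1 load the MCM2 to MCM7 helicase onto DNA, and in S phase CDC45 and the GINS complex join it to form the active helicase. Polymerase alpha with primase starts each strand, the RFC complex loads the PCNA clamp, and polymerases delta and epsilon extend the DNA while RPA coats the exposed single strands. Many of these genes are known targets of E2F transcription factors, whose activity rises at the passage from G1 to S.

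Because such control is read from the promoter, the sequence upstream of the members was examined first. RefSeq gave a window of 250 bases before to 50 bases after the start (GRCh38.p14) for 35 of the 42 members. RPA2, POLD3, GINS4, RPA3, MCM4, CCNE2 and MCM5 had none. An E2F-type motif was counted as TTTCCCGC, TTTGGCGC, TTTCGCGC, TTTGCCGC or TTCCCGCC on either strand, and matches of different forms or strands can overlap. It occurred in 21 of the 35 members (60.0%), compared with 6.67% of the 27305 genes with a window and 11.6% of the 9263 of these that were tested. The CCAAT box, searched as CCAAT on both strands, occurred in 60.0% of members and 44.3% of tested genes. The CHR element of genes expressed late in the cell cycle, searched as TTTGAA on both strands, occurred in 1 of 35 members (2.86%) and in 13.7% of tested genes. These shares are descriptions of letters in a window and not of binding.

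The 250 bases upstream are shown for the members with a change past the threshold whose window met no annotated exon. They comprise a gene that fell in both clones (CDT1, and likewise MCM6), a gene that moved in opposite directions (CDC6), and a gene that rose in Clone C17.2 (GINS2). Each is written 5′ to 3′ on the strand of the gene, with E2F-type motifs and CCAAT boxes in capitals. The windows are chr16:88803539-88803788 on the forward strand for CDT1, chr2:135876444-135876693 on the reverse strand for MCM6, chr17:40287629-40287878 on the forward strand for CDC6, and chr16:85688955-85689204 on the reverse strand for GINS2.
CDT1: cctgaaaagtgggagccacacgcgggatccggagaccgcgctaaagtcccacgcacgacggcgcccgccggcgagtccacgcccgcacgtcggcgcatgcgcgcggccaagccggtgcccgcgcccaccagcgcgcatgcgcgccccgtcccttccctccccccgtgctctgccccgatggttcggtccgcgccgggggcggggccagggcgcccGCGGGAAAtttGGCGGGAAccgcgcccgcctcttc
MCM6: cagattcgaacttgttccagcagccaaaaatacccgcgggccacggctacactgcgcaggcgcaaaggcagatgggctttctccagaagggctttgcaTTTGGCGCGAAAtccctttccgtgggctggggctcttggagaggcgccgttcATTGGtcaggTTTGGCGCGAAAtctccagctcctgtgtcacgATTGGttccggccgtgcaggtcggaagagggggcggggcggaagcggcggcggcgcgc
CDC6: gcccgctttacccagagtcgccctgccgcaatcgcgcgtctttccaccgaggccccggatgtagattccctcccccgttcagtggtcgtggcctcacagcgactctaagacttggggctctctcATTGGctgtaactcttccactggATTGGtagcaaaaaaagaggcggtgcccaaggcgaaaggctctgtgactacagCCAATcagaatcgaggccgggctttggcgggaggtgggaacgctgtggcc
GINS2: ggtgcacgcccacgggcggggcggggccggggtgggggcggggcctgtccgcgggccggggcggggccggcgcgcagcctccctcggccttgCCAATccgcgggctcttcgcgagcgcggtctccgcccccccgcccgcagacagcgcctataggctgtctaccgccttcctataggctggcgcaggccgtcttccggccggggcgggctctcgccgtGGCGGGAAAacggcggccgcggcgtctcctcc
CDT1 held 2 E2F-type motifs in these bases and no CCAAT box. MCM6 held 4 matches, in 2 stretches in which a match on each strand overlaps, and 2 CCAAT boxes. CDC6 held 3 CCAAT boxes, and its E2F-type motif by the forms counted lay just after the start, outside the bases shown. The stretch TTTGGCGGG near the end of these bases is not among the forms counted. GINS2 held 2 overlapping matches and 1 CCAAT box. Members of both directions carried the motif. It was present in 4 of the 8 members with a window that rose in Clone C17.2, in 5 of the 7 that fell there, and in 12 of the 20 that did not pass the threshold. In Clone C3.2 it was present in 5 of the 6 that fell and in 16 of the 29 others.

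The deposited values are TPM, a unit relative to gene length and to the total of the library and that keeps no sequencing depth. Protein-coding genes held 36.0% to 43.3% of the TPM of a library. TPM were scaled between libraries with factors between 0.893 and 1.16, and the values given below are scaled TPM. Replicate libraries gave a Pearson's r of 0.968 to 0.979 when correlated over genes, which are not independent replicates. Over the members, the median gap between the 2 libraries of a group was 0.045 to 0.071 on the log2 scale. Fold changes are resistant over parental cells on the log2(scaled TPM + 1) scale, tested with limma over all 15614 genes, with a threshold of 0.05 on the Benjamini-Hochberg adjusted p. CTCF RNA itself was 33.7 and 34.1 in Clone C17.2 parental cells, 45.5 and 47.3 in its resistant cells, 36.0 and 35.0 in Clone C3.2 parental cells, and 45.3 and 44.8 in its resistant cells. Of the B-lineage markers, CD22, CD79A, PAX5 and EBF1 were abundant in every library, with 99.5 for CD79A as the lowest value, whereas BLNK, RAG1 and DNTT stayed below 1. The T cell markers CD3D, CD4 and CD8A were at 0 in all 8. TRAC and NKG7, from the same list of 10 T and NK cell markers, were detected, and that list summed to 46.4 to 61.5 scaled TPM.

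Replication genes were abundant in both clones. The median member had a mean scaled TPM of 40.1, compared with 8.21 for all tested genes, and 40 of 42 reached 10. RRM2 was highest with 189, followed closely by MCM4, and CCNE1 was lowest with 1.67. In bulk RNA, fewer cells in S phase and less RNA per cell cannot be told apart.

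In Clone C17.2, 11 members rose and 7 fell. Of all tested genes, 27.3% passed the threshold in this clone (13.4% higher, 13.9% lower), and of the genes with a mean scaled TPM of at least 10, a level most members reached, 36.1% did (19.5% higher, 16.7% lower). Members called amounted to 42.9% (26.2% higher, 16.7% lower). The share called lower was therefore at the background of genes of that level, and the share called higher was somewhat above it. In Clone C3.2, no member rose and 8 fell (19.0%) by limma. At an unadjusted p under 0.05, 1 member (RFC5) was higher there and 16 were lower. There, 11.4% of tested genes passed (4.46% higher, 6.9% lower), and 14.7% of the more abundant genes did (5.28% higher, 9.4% lower). The libraries did not overlap for 15 higher and 18 lower members in Clone C17.2, where 33.3% and 32.7% of tested genes did not overlap in those directions, and for 4 higher and 26 lower members in Clone C3.2, where the shares were 27.8% and 28.1%.

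The median log2 fold change of the members was -0.012 in Clone C17.2 and -0.088 in Clone C3.2, with a median of 0 over all tested genes in both. The members spread widely around it in Clone C17.2, with an SD of 0.303, and less so in Clone C3.2, with an SD of 0.149. Only CDT1, MCM3 and MCM6 fell in both clones. CDC6 and RPA1 rose in Clone C17.2 and fell in Clone C3.2. A further 21 members passed the threshold in neither clone. Estimates had the same sign in both clones for 29 of 42 members. The share over all tested genes was not taken, so this count has no background beside it.

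Whether a change differed between the clones was tested by the interaction. It passed for 7 members (16.7%), 5 of them higher and 2 lower in the change of Clone C17.2 than in that of Clone C3.2. Of all tested genes, 9.91% passed (4.92% higher, 5.0% lower), and of the more abundant genes 14.0% did (7.73% higher, 6.27% lower), so the share of members lay near that background. The 7 were CDC6, RPA1, FEN1, MCM4 and GINS2 on the higher side and CDT1 and RFC2 on the lower side.

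**Figure D1:**
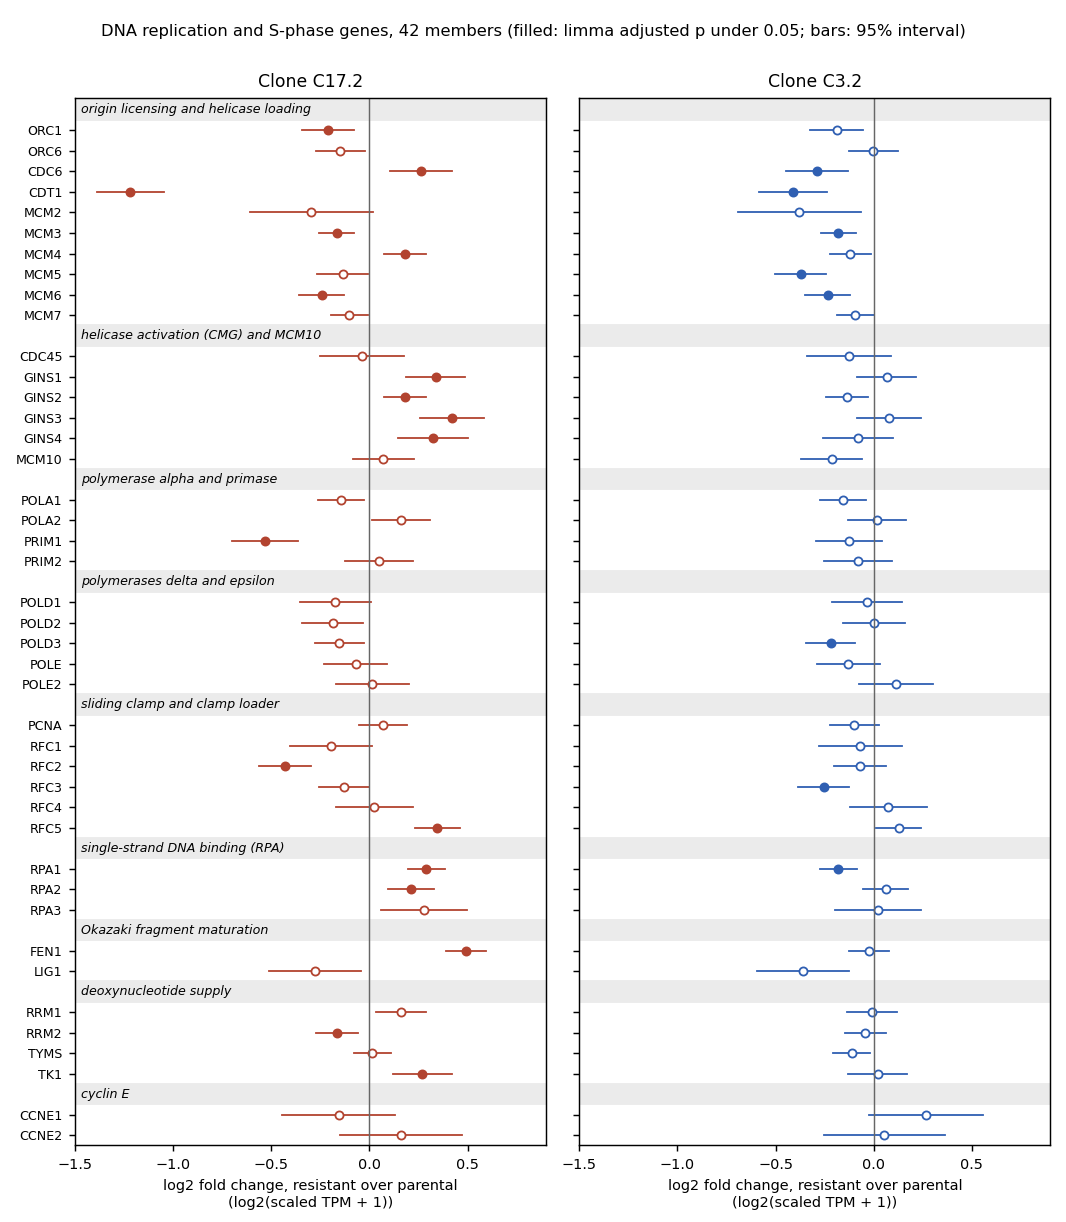
Log2 fold change of resistant over parental cells for each of the 42 members, by role, in Clone C17.2 (left) and Clone C3.2 (right). Points are limma estimates on log2(scaled TPM + 1), bars are 95% intervals, and filled points passed an adjusted p of 0.05. In Clone C17.2 filled points lie on both sides of 0, with CDT1 farthest to the left at -1.22 and FEN1 farthest to the right at 0.49, whereas in Clone C3.2 all 8 filled points lie to the left.

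The split depended on the scaling. With TPM as deposited, 15 members were higher and 3 lower in Clone C17.2, and 0 and 1 in Clone C3.2. On that scale the median of all tested genes moved by 0.135 in Clone C17.2, and 75.1% of all calls were higher, compared with 49.1% on the scaled values. With TPM rescaled over protein-coding genes, the split was 14 and 4 in Clone C17.2 and 1 and 2 in Clone C3.2. No member that passed the threshold changed sign under any scaling.

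**Figure D2:**
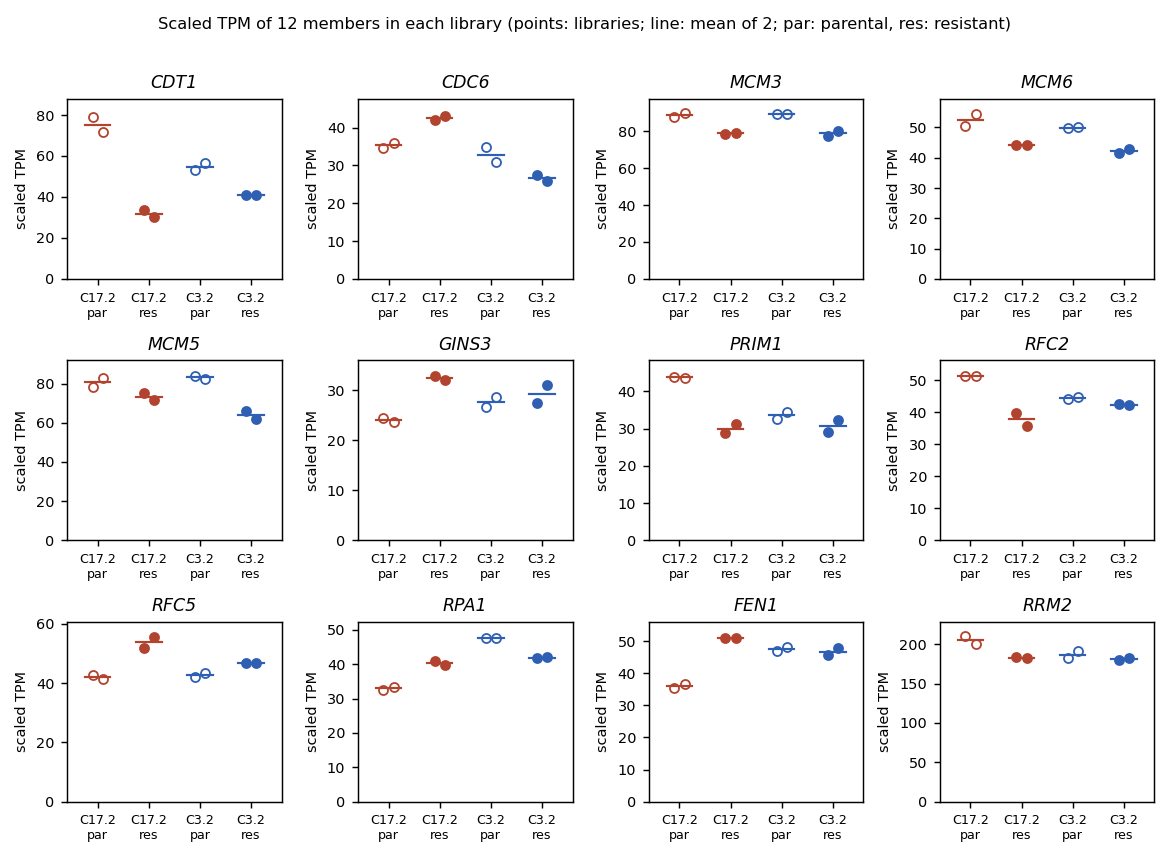
Scaled TPM of 12 members in each library of the 4 groups. Open points are parental and filled points resistant libraries, lines are the means of 2 libraries, red is Clone C17.2, blue is Clone C3.2, and every axis starts at 0. CDT1 fell from 78.9 and 71.6 to 33.4 and 30.1 in Clone C17.2, while RPA1 and CDC6 lie higher in the resistant libraries of Clone C17.2 and lower in those of Clone C3.2.

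Licensing factors held the largest change. CDT1 (chr16:88803789-88809258 on the forward strand, GRCh38 by Gencode release 44), which brings the MCM helicase to origins and is destroyed in S phase, was 78.9 and 71.6 in the parental libraries of Clone C17.2 and 33.4 and 30.1 in its resistant libraries. Clone C3.2 had 53.1 and 56.4 in parental cells and 41.0 and 40.8 in resistant cells. The resistant libraries were lower in both clones, with no overlap. The log2 fold change was -1.22 with a standard error (SE) of 0.071 in Clone C17.2 (limma adjusted p = 0.000141) and -0.41 in Clone C3.2 (limma adjusted p = 0.0181). The fall was larger in Clone C17.2 by 0.81 on the log2 scale, and the test of that difference gave a limma adjusted p of 0.00678.

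CDC6 (chr17:40287879-40304657, forward strand), the ATPase that works with CDT1 at the origin, did not follow it. It was 34.7 and 36.0 in the parental and 42.1 and 43.2 in the resistant libraries of Clone C17.2. Clone C3.2 had 34.8 and 30.9 in the parental and 27.4 and 25.9 in the resistant libraries. Parental libraries of the clones overlapped, and the resistant libraries lay to either side of them. The log2 fold changes were 0.26 (limma adjusted p = 0.0279) and -0.29 (limma adjusted p = 0.0402), and their difference of 0.55 passed the threshold (limma adjusted p = 0.0179). The call in Clone C3.2 was lost when any 1 of the 8 libraries was left out (limma adjusted p between 0.053 and 0.154).

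The ratio of 2 genes within a library does not depend on the scaling between libraries, and ratios of this kind, chosen after the values were seen, are given without a test. CDT1 to CDC6 was 2.27 and 1.99 in the parental and 0.794 and 0.697 in the resistant libraries of Clone C17.2, so the order of the 2 genes turned over. Clone C3.2 gave a ratio of 1.53 and 1.83 in the parental and 1.498 and 1.57 in the resistant libraries, which overlapped. Geminin (GMNN), the protein that binds and inhibits CDT1, is not a member. Its RNA was 39.2 and 36.4 in the parental and 46.3 and 43.8 in the resistant libraries of Clone C17.2, a log2 fold change of 0.25 (limma adjusted p = 0.0168). The values for Clone C3.2 were 46.2 and 44.9 in the parental and 39.8 and 40.2 in the resistant libraries, a log2 fold change of -0.18 that did not pass the threshold (limma adjusted p = 0.0795). CDT1 to GMNN went from 2.01 and 1.97 to 0.723 and 0.688 in Clone C17.2, and from 1.15 and 1.26 to 1.03 and 1.02 in Clone C3.2.

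**Figure D3:**
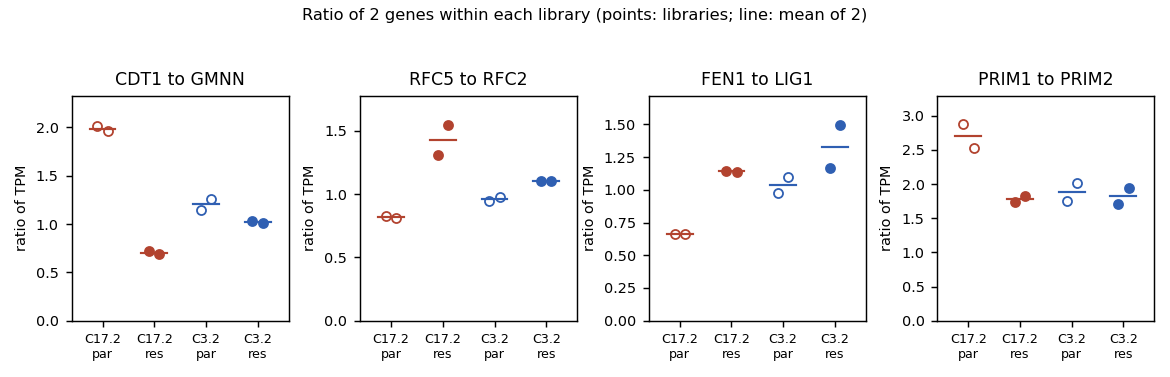
Ratio of the TPM of 2 genes within each library, for CDT1 to GMNN, RFC5 to RFC2, FEN1 to LIG1 and PRIM1 to PRIM2. Open points are parental and filled points resistant libraries, lines are means of 2 libraries, and every axis starts at 0. In Clone C17.2 all 4 ratios separate the resistant from the parental libraries, whereas in Clone C3.2 PRIM1 to PRIM2 overlaps and the other 3 lie closer together.

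Of the 6 subunits of the MCM helicase, 5 had an estimate below 0 in Clone C17.2 and all 6 did in Clone C3.2. Only MCM4 lay above 0, in Clone C17.2. MCM6 was 50.5 and 54.4 in the parental and 44.1 and 44.1 in the resistant libraries of Clone C17.2, and 49.8 and 50.1 in the parental and 41.7 and 42.9 in the resistant libraries of Clone C3.2. Its levels were near equal between the clones and fell by about as much in each, with log2 fold changes of -0.24 (limma adjusted p = 0.0119) and -0.23 (limma adjusted p = 0.0292). The interval of the difference ran from -0.17 to 0.15. MCM3 fell likewise, by 0.17 (limma adjusted p = 0.0197) and 0.18 (limma adjusted p = 0.0316) on the log2 scale, and the interval of its difference ran from -0.12 to 0.14. In Clone C3.2 the call of MCM3 was lost whichever of the 8 libraries was left out (limma adjusted p between 0.0508 and 0.136), and that of MCM6 was kept in 2 of those 8 fits. Both genes carry the same sign under every scaling, but the fall of MCM3 in Clone C17.2 shrank to 0.0086 on TPM as deposited.

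MCM4, the most abundant of the 6 subunits, was 188 and 179 in the parental and 206 and 210 in the resistant libraries of Clone C17.2, a rise of 0.18 (limma adjusted p = 0.0253). Libraries of Clone C3.2 had 178 and 183 in the parental and 164 and 169 in the resistant libraries, an estimate of -0.12 that did not pass the threshold (limma adjusted p = 0.141). The changes of the clones differed by 0.30 (limma adjusted p = 0.0327). The ratio of MCM4 to MCM6, 2 subunits that stand in equal number in the helicase, was 3.72 and 3.29 in the parental and 4.67 and 4.77 in the resistant libraries of Clone C17.2. For Clone C3.2 the ratio was 3.57 and 3.66 in the parental and 3.93 and 3.93 in the resistant libraries.

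MCM5 fell in Clone C3.2, from 83.9 and 82.3 to 66.1 and 62.0, by 0.37 on the log2 scale (limma adjusted p = 0.0108). In Clone C17.2 it was 78.1 and 83.1 in the parental and 74.9 and 71.5 in the resistant libraries, an estimate of -0.14 (limma adjusted p = 0.111), and the clones were not shown to differ (limma adjusted p = 0.110). MCM2 and MCM7 passed in neither clone. The estimates of MCM2 were -0.30 in Clone C17.2 and -0.38 in Clone C3.2, and those of MCM7 were -0.10 and -0.09. MCM2 had the widest replicate spread of the 6, at 106.5 and 87.9 among parental cells of Clone C17.2, for example. Of the origin recognition complex, the scaffold that marks origins, ORC1 fell in Clone C17.2 by 0.21 (limma adjusted p = 0.0338), and its estimate of -0.19 in Clone C3.2 did not pass (limma adjusted p = 0.0819). ORC6 passed in neither clone. Over the 10 licensing members, 2 rose and 4 fell in Clone C17.2, and 5 fell in Clone C3.2. Their estimates were below 0 for 8 of the 10 in Clone C17.2 and for all 10 in Clone C3.2. Of all tested genes, 49.75% in Clone C17.2 and 49.4% in Clone C3.2 had an estimate above 0.

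All 4 GINS subunits, which join the helicase in S phase, rose in Clone C17.2. GINS3 was 24.5 and 23.6 in the parental and 32.9 and 32.1 in the resistant libraries, a rise of 0.42 with an SE of 0.068 (limma adjusted p = 0.00609). GINS1 was 16.8 and 18.4, then 22.4 and 22.7, a rise of 0.34 (limma adjusted p = 0.00976). GINS4 was 17.21 and 18.7, then 21.5 and 23.9, a rise of 0.32 (limma adjusted p = 0.0205). GINS2 was 24.2 and 23.4, then 27.5 and 26.6, a rise of 0.18 (limma adjusted p = 0.0270). No resistant library of Clone C17.2 overlapped a parental library in any of the 4, and their estimates were above 0 under every scaling.

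In Clone C3.2 none of the 4 GINS genes passed the limma threshold, and GINS2 was lower at an unadjusted p under 0.05. GINS3 was 26.6 and 28.6 in its parental and 27.5 and 30.96 in its resistant libraries. The estimates of the 4 genes ran from -0.14 for GINS2 to 0.08 for GINS3. The difference between the clones passed for GINS2 (0.32, limma adjusted p = 0.0290) and not for GINS4 (0.40, limma adjusted p = 0.0615), GINS3 (0.34, limma adjusted p = 0.0788) or GINS1 (0.27, limma adjusted p = 0.112). GINS2 overlaps GSE1 on the opposite strand, whose RNA fell in both clones, by 1.77 and 1.00 on the log2 scale. The sources used here do not say whether counting used strand, so the value of GINS2 is uncertain. CDC45, the other partner of the helicase, and MCM10, which helps to activate it, passed in neither clone. CDC45 lay between 23.9 and 29.4 in all 8 libraries.

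Among the polymerase alpha and primase genes, PRIM1 alone passed the threshold, and in Clone C17.2 alone. PRIM1 (chr12:56730438-56752374, reverse strand), the catalytic subunit that makes RNA primers, was 43.96 and 43.6 in the parental and 28.8 and 31.3 in the resistant libraries, a log2 fold change of -0.53 with an SE of 0.069 (limma adjusted p = 0.00265). In Clone C3.2 it was 32.6 and 34.5 in the parental and 29.0 and 32.4 in the resistant libraries (limma adjusted p = 0.295). The difference between the clones was -0.41 and missed the threshold (limma adjusted p = 0.0508). Its partner PRIM2 lay between 15.3 and 18.6 in all libraries, and the ratio of PRIM1 to PRIM2 went from 2.88 and 2.53 to 1.74 and 1.82 in Clone C17.2. PRIM1 overlaps NACA on the same strand, an abundant gene with a mean scaled TPM of 428 that fell in both clones, so the split of reads between them is uncertain. The estimates of POLA1, the catalytic polymerase subunit, were -0.15 and -0.16, and those of POLA2 were 0.16 and 0.02.

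Few genes of the replicative polymerases delta and epsilon passed the limma test. None of the 5 members did in Clone C17.2 (2 were lower at an unadjusted p under 0.05), and POLD3, an accessory subunit of polymerase delta, was the 1 gene to pass in Clone C3.2. It was 19.9 and 19.6 in the parental and 17.5 and 16.2 in the resistant libraries, a fall of 0.22 (limma adjusted p = 0.0443). In Clone C17.2 it was 23.5 and 24.2, then 21.6 and 21.0 (limma adjusted p = 0.0707). POLE, the catalytic subunit of polymerase epsilon and the most abundant of the 5, lay between 59.8 and 74.8, and its groups overlapped in Clone C17.2.

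The clamp loader subunits parted in Clone C17.2. RFC2 (chr7:74231499-74254458, reverse strand) was 51.2 and 51.2 in the parental and 39.8 and 35.8 in the resistant libraries, a log2 fold change of -0.43 with an SE of 0.055 (limma adjusted p = 0.00250). RFC5 (chr12:118013588-118033130, forward strand) was 42.6 and 41.5, then 52.0 and 55.5, a rise of 0.35 with an SE of 0.048 (limma adjusted p = 0.00332). These are subunits of 1 pentamer, and the ratio of RFC5 to RFC2 passed from 0.831 and 0.811 to 1.31 and 1.55, from below 1 to above it.

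In Clone C3.2, RFC2 was 44.2 and 44.7 in the parental and 42.4 and 42.3 in the resistant libraries (limma adjusted p = 0.470), and RFC5 was 41.99 and 43.6, then 46.9 and 46.7 (limma adjusted p = 0.147). The ratio of the 2 went from 0.950 and 0.974 to 1.11 and 1.10. The change of RFC2 differed between the clones by -0.36 (limma adjusted p = 0.0364), and that of RFC5 was not shown to differ (limma adjusted p = 0.0966). RFC5 overlaps WSB2 on the opposite strand, which rose in both clones, by 0.76 and 0.27, and its value is uncertain to that extent. RFC3 fell in Clone C3.2, from 28.8 and 29.9 to 23.8 and 25.05 (limma adjusted p = 0.0316). PCNA, the clamp itself and the most abundant gene of the group, lay between 125.7 and 148.6 and passed in neither clone, as did RFC1 and RFC4.

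RPA1 (chr17:1829702-1900082, forward strand), the large subunit of RPA, was 32.6 and 33.3 in the parental and 41.1 and 39.9 in the resistant libraries of Clone C17.2. The order was opposite in Clone C3.2, with 47.6 and 47.7 in the parental and 41.9 and 42.04 in the resistant libraries. The parental libraries of the clones stood far apart, and the resistant libraries came to lie close together, between 39.9 and 42.04. The log2 fold changes were 0.29 (limma adjusted p = 0.00312) and -0.18 (limma adjusted p = 0.0351), and their difference of 0.47 passed the threshold (limma adjusted p = 0.00556). RPA1 overlaps SMYD4 on the opposite strand, which had a mean scaled TPM of 11.0 and passed in neither clone. RPA2, the middle subunit, was 34.6 and 37.2, then 41.7 and 41.6 in Clone C17.2, a rise of 0.21 (limma adjusted p = 0.0204). In Clone C3.2 it was 38.9 and 39.6, then 41.5 and 40.3 (limma adjusted p = 0.460). RPA3, the small subunit, had an estimate of 0.28 in Clone C17.2 that did not pass (limma adjusted p = 0.0677).

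FEN1 (chr11:61792911-61797238, forward strand), the nuclease that trims the flaps between Okazaki fragments, had the largest rise among the members in Clone C17.2. It was 35.5 and 36.7 in the parental and 51.1 and 51.1 in the resistant libraries of Clone C17.2, a log2 fold change of 0.49 with an SE of 0.042 (limma adjusted p = 0.000577). In Clone C3.2 it was 47.0 and 48.1 in the parental and 45.8 and 47.7 in the resistant libraries, with no change past the threshold (limma adjusted p = 0.771). The clones differed by 0.51 (limma adjusted p = 0.00532), and the resistant cells of Clone C17.2 reached a level near that of both groups of Clone C3.2. FEN1 overlaps FADS2 on the same strand, a gene with a mean scaled TPM of 183 that rose by 0.24 in Clone C17.2 and fell by 0.21 in Clone C3.2, so the split of reads is uncertain.

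LIG1, the ligase that seals the fragments after FEN1, was 53.5 and 55.5, then 44.7 and 45.0 in Clone C17.2, and 48.05 and 43.8, then 39.4 and 31.99 in Clone C3.2. Its resistant libraries lay below its parental libraries in both clones, and neither estimate passed (limma adjusted p = 0.0831 and 0.0640). The ratio of FEN1 to LIG1 went from 0.663 and 0.661 to 1.14 and 1.14 in Clone C17.2, and from 0.979 and 1.10 to 1.16 and 1.49 in Clone C3.2.

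Of the 4 genes for deoxynucleotide supply, 1 rose and 1 fell in Clone C17.2, and none passed the limma threshold in Clone C3.2, where TYMS was lower at an unadjusted p under 0.05. RRM2, the S-phase subunit of ribonucleotide reductase, was 210 and 201 in the parental and 183 and 183 in the resistant libraries of Clone C17.2, a fall of 0.17 (limma adjusted p = 0.0337) that shrank to 0.0055 on TPM as deposited. In Clone C3.2 it was 182 and 191, then 180 and 182 (limma adjusted p = 0.574). TK1, thymidine kinase, was 40.7 and 43.0, then 51.8 and 49.4 in Clone C17.2, a rise of 0.27 (limma adjusted p = 0.0222), and 48.2 and 47.5, then 46.0 and 51.2 in Clone C3.2 (limma adjusted p = 0.881). RRM1, the large reductase subunit, and TYMS, thymidylate synthase, passed in neither clone. TYMS lay between 142 and 164 in all libraries.

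The E-type cyclins, partners of CDK2 at the start of S phase, were the least abundant members. CCNE2 lay between 7.41 and 11.1 and CCNE1 between 1.21 and 2.12, and neither passed in either clone. The 95% interval for CCNE1 ran from -0.45 to 0.13 in Clone C17.2 and from -0.02 to 0.56 in Clone C3.2, so a change of moderate size was not detectable.

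Of the 18 calls in Clone C17.2, 7 held under all 8 processing alternatives and without each of the 8 libraries in turn, namely CDT1, GINS3, PRIM1, RFC2, RFC5, RPA1 and FEN1. Of the 7 differences between the clones, those of CDT1, RPA1 and FEN1 held under every processing alternative and every left-out library. None of the 8 calls in Clone C3.2 did so. Without either parental library of Clone C3.2, no member passed there, and without its resistant replicate 2 the count was 1. The spread is estimated over all 8 libraries, and without any 1 library of Clone C17.2 the count in Clone C3.2 was 3 or 4. In Clone C17.2, leaving out parental replicate 1 or 2 left 4 higher and 4 lower or 7 higher and 3 lower members, and leaving out resistant replicate 1 or 2 left 6 and 4 or 4 and 3.

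**Figure D4:**
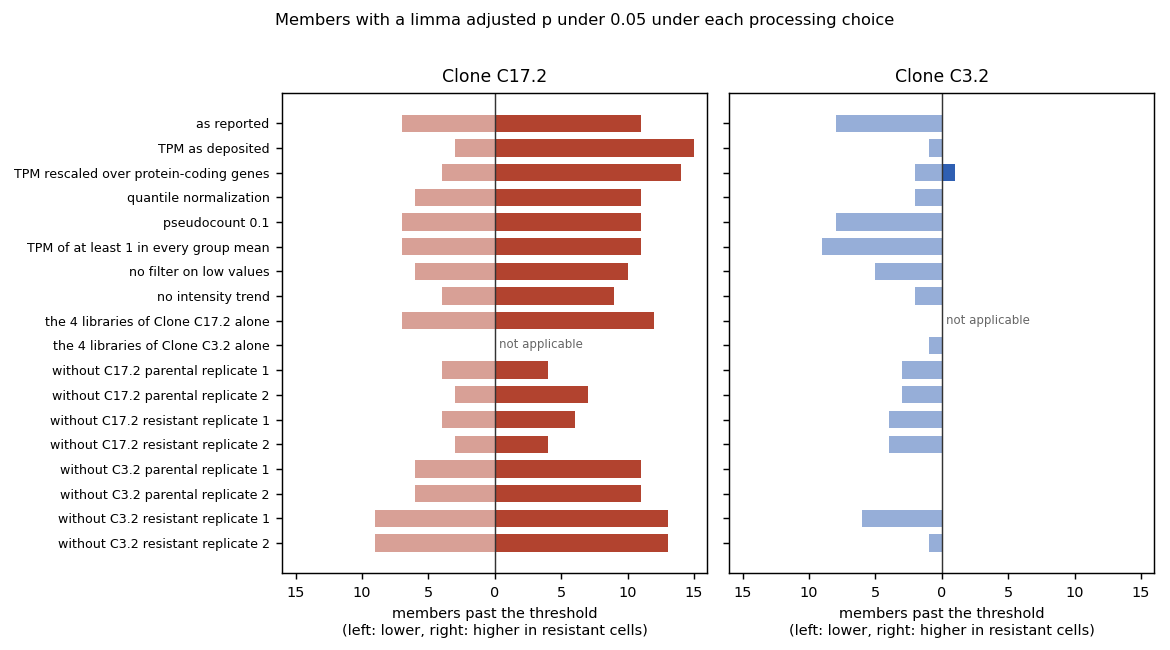
Number of members past an adjusted p of 0.05 under each processing choice and with each library left out, with bars to the right for members higher and to the left for members lower in resistant cells. The counts reported are 11 and 7 in Clone C17.2 and 0 and 8 in Clone C3.2. In Clone C17.2 both directions are present in every fit shown, whereas in Clone C3.2 the count of lower members runs from 1 to 9 over the processing choices and from 0 to 6 with 1 library left out.

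Genes that work beside the members were listed in 5 groups. Of all tested genes, 13.4% were called higher and 13.9% lower in Clone C17.2, and 4.46% and 6.9% in Clone C3.2. Among genes with a mean scaled TPM of at least 10, the shares were 19.5% and 16.7%, and 5.28% and 9.4%. The counts of each of the 5 groups are to be read beside these shares. Among 38 other replisome and licensing genes, 8 rose and 2 fell in Clone C17.2, and 1 rose and 2 fell in Clone C3.2. CDC7, the kinase that fires origins, rose in both, by 0.59 and 0.24. In Clone C3.2 its call (limma adjusted p = 0.0433) was lost whichever of the 8 libraries was left out, with estimates between 0.18 and 0.30. UHRF1, which couples DNA methylation to replication, fell in both, by 0.46 and 0.83, and the larger fall was in Clone C3.2 (difference 0.38, limma adjusted p = 0.00874). POLE3 and POLE4, the histone-fold subunits of polymerase epsilon, rose in Clone C17.2 by 0.45 and 0.40, while POLE and POLE2 did not pass. ASF1A, a histone chaperone, fell in Clone C3.2 by 0.39.

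Of 25 genes of the replication checkpoint and fork protection, 6 rose and 2 fell in Clone C17.2, and 2 rose and 3 fell in Clone C3.2. TIMELESS, a fork protection protein, rose by 0.43 and BLM, a helicase, by 0.40 in Clone C17.2. CHEK1, the checkpoint kinase, fell by 0.27 and HLTF, a fork remodeler, by 0.43 in Clone C3.2. PRIMPOL, a second primase that restarts stalled forks, fell by 0.31 in Clone C17.2 and rose by 0.28 in Clone C3.2. The difference between the clones passed the threshold (limma adjusted p = 0.00914). The call in Clone C3.2 (limma adjusted p = 0.0290) was lost whichever of the 8 libraries was left out, with estimates between 0.23 and 0.32.

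Of the 28 G1/S regulators tested out of 32 listed, 5 rose and 6 fell in Clone C17.2, and 3 rose and 6 fell in Clone C3.2. SKP2, whose protein targets CDT1 and p27 for degradation, was 23.2 and 22.3, then 35.4 and 34.9 in Clone C17.2, a rise of 0.61 (limma adjusted p = 0.000501), and 29.7 and 30.1, then 27.1 and 25.2 in Clone C3.2 (limma adjusted p = 0.0640). E2F1 fell in both clones, by 0.21 in Clone C17.2 and 0.31 in Clone C3.2. E2F7, a repressor of E2F targets, rose in both, by 0.31 and 0.54, and CDKN1A, the p21 inhibitor, fell in both, by 0.52 and 0.46. Of 15 other genes of deoxynucleotide metabolism, 4 rose and 1 fell in Clone C17.2, and 1 rose in Clone C3.2. SAMHD1, which breaks deoxynucleotides down, rose in both clones, by 0.40 and 0.51.

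In Clone C17.2 most markers of G2 and mitosis rose. Clone C17.2 had 15 of 19 such genes higher and 1 lower, and their median change was 0.33. The share called higher there was 13.4% of all tested genes and 19.5% of those with a mean scaled TPM of at least 10. By limma Clone C3.2 had none higher (2 at an unadjusted p under 0.05) and 1 lower, and the median was 0.00. The list has no test. CCNB1, the mitotic cyclin, was 41.6 and 41.7 in the parental and 62.3 and 56.7 in the resistant libraries of Clone C17.2, and 58.5 and 60.9, then 58.3 and 55.9 in Clone C3.2. Their summed scaled TPM had a mean of 947 in parental and 1170 in resistant cells of Clone C17.2, where the sum of the 42 members was 2275 and 2211. The part of cell cycle distribution in the changes of the members was not tested.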

How the data were processed

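RNA-seq was analyzed for 8 libraries of CTCF-AID2 SEM cells in 4 groups of 2. According to the methods of the study and the labels, the authors used Trim Galore 0.6.3 for trimming, STAR 2.7.9a for alignment to GRCh38, and RSEM 1.3.1 with Gencode release 31 for quantification. The values that the authors deposited are TPM, unscaled between libraries. Sequencing depth cannot be had from TPM, and no counting error is given. The 92 ERCC sequences are listed at 0. The labels describe single-end and the methods paired-end reads, and strandedness of counting is not given in the sources used here.

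Genes that reached a TPM of 1 in any library were tested. Library factors were trimmed means of log2 ratios to the mean library, with 30% of ratios and 5% of means trimmed at each end. The model was fitted to log2(scaled TPM + 1) by limma 3.58.1 under R 4.3.3 (lmFit, contrasts.fit, eBayes with trend), jointly for the 4 groups, and tests were two-sided with Benjamini-Hochberg adjustment over all 15614 genes per contrast. Since voom takes counts, the fit used by the study was not run. Each clone gave 1 contrast, resistant minus parental, and the third contrast was their difference. An exact permutation of 2 libraries against 2 cannot go below p = 0.333. The closing section gives the effect of other scalings, another pseudocount, other filters, other models and left-out libraries.

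The members and gene lists were chosen with earlier results of these data known. Values in every library were given for members past the threshold, up to 4 per role by absolute fold change, and for the most abundant of each role. Of each other list at most the 4 largest changes past the threshold without overlap were named in each clone, and not all of these are named. GMNN was named after its values were seen. Positions came from Gencode release 44 and promoters from RefSeq (GRCh38.p14). Pseudogenes named after a member (15) had a TPM of at most 0.55. Of other marker lists, myeloid genes summed to 3.03 to 6.37, erythroid and megakaryocyte genes to 0.108 to 0.727, and fibroblast and epithelial genes to 2.57 to 6.70 scaled TPM. In the T and NK list TRAC (34.1 to 53.4) and NKG7 (7.84 to 12.3) were detected. Tables and plots were made in Python 3.11.15 (pandas 2.3.3, numpy 2.4.6, matplotlib 3.10.9).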

Additional observations from a re-analysis of the deposited data

Results flagged for a closer look

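For 7 members (16.7%) the change between parental and resistant cells differed between the clones by the interaction test of limma, at an adjusted p under 0.05. The share was 9.91% of all tested genes and 14.0% of those with a mean scaled TPM of at least 10, so the members lay near that background. The log2 fold change in Clone C17.2 minus that in Clone C3.2 was 0.5532 for CDC6, 0.4681 for RPA1, 0.5149 for FEN1, 0.3168 for GINS2 and 0.2995 for MCM4. It was -0.8065 for CDT1 and -0.3626 for RFC2. CDC6 and RPA1 rose in 1 clone and fell in the other, CDT1 fell in both, and FEN1, GINS2, MCM4 and RFC2 passed the threshold in Clone C17.2 and not in Clone C3.2. Whether the clones were handled together is not given in the sources used here.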

How the results depend on the processing

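With TPM as deposited, members lower in resistant cells numbered 3 in Clone C17.2 and 1 in Clone C3.2, the median change of the members was 0.143 and -0.023, and the difference between the clones held for 1 lower member. With TPM rescaled over protein-coding genes, 4 members were lower in Clone C17.2, 1 was higher and 2 were lower in Clone C3.2, and the medians were 0.070 and 0.013. Medians of all tested genes moved with them, to 0.135 and 0.053 and to 0.069 and 0.085. Quantile normalization left 2 lower members in Clone C3.2 and a median of -0.019. Without the filter on low values, 5 members were lower in Clone C3.2, 1 differed downward between the clones, and 1173 of all genes passed in Clone C3.2 (1773 as reported). Without the intensity trend, 4 members were lower in Clone C17.2 and 2 in Clone C3.2, and the difference held for 3 higher and 1 lower. With the 4 libraries of Clone C3.2 alone, 1 member was lower and 386 of all genes passed. The cause of these shifts was not tested.

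Over fits that left out 1 library, members higher and lower numbered 4 to 13 and 3 to 9 in Clone C17.2, with a median between -0.087 and 0.050, and 0 and 0 to 6 in Clone C3.2, with a median between -0.094 and -0.081. The difference held for 2 to 5 higher and 1 to 2 lower members. Of all genes, 2398 to 4575, 343 to 1820 and 561 to 1788 passed in Clone C17.2, in Clone C3.2 and for the difference. A group left with 1 library was assumed to vary like the others. Over single members, 58 of the values under processing alternatives and 111 under left-out libraries lost a call, 19 and 15 gained one, and no call changed direction. No paired analysis was possible because libraries of a clone share no replicate number in the labels. Depth is unknown, 2 libraries a group limit the precision, and small changes were not detectable.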

Other observations

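The parental cells of the clones already differed in several members, which belongs to no comparison tested here. RPA3 was 8.30 and 8.50 in Clone C17.2 and 14.5 and 12.7 in Clone C3.2, GINS4 was 17.21 and 18.7 against 25.6 and 23.5, and PRIM1 was 43.96 and 43.6 against 32.6 and 34.5. For RPA1, FEN1, PRIM1 and GINS4, resistant cells of Clone C17.2 lay nearer to the parental cells of Clone C3.2 than its own parental cells did. For other members, MCM4, RFC5, GINS1 and CDC6 among them, they lay farther away. The parental libraries of Clone C17.2 enter both the change and the distance, and neither pattern was tested. Resistant cells of Clone C17.2 lay past the parental cells of Clone C3.2 for FEN1, PRIM1 and CDT1. For CDT1 the values were 33.4 and 30.1 against 53.1 and 56.4. Whether the clones were handled together is not given in the sources used here.

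Of the 9 B-lineage markers tested, 5 fell and none rose in Clone C17.2, and 5 fell and 1 rose in Clone C3.2, by limma. Over all tested genes, 13.9% fell and 13.4% rose in Clone C17.2, and 6.9% fell and 4.46% rose in Clone C3.2. IGLL1, a surrogate light chain gene of the pre-B cell receptor, fell by 2.16 in Clone C17.2 and by 2.35 in Clone C3.2, and CD79B, a signaling chain of the receptor, fell by 1.51 and 1.03. PAX5, a B-lineage transcription factor, rose by 0.27 in Clone C3.2.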
